A study of Arabidopsis thaliana with 17 samples.

Results

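The comparison described here asks what heat at 4 d of age still changed in the response to heat at 7 d of age when HSFA2 was missing. It sets 2 arrays of hsfa2 seedlings that were primed and triggered against 2 arrays of hsfa2 seedlings that were only triggered, chosen by their labels, which makes 4 of the 17 arrays of the study. Transcript levels were measured on Affymetrix arrays in whole Arabidopsis thaliana seedlings of 7 d, in the accession Col-0 (wild type) and in the HSFA2 knockout line SALK_008978, called hsfa2 here. Primed and triggered hsfa2 seedlings spent 1 h at 37 °C when 4 d old, recovered for 3 d and had another 1 h at 37 °C just before collection. Triggered hsfa2 seedlings had only the heat just before collection, and naive hsfa2 seedlings (2 arrays) were never heated. The wild type gave 3 primed and triggered, 3 triggered, 3 naive and 2 primed arrays under the same treatments. All hsfa2 arrays come from 1 knockout line, the arrays of a group are labelled as biological replicates, and hsfa2 seedlings that were only primed were not analysed here.

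HSFA2 is a transcription factor that heat induces and that keeps heat shock genes active after the stress has ended. Seedlings that have had a mild heat respond to later heat with stronger transcription of some genes, a form of heat stress memory, and loss of HSFA2 shortens acquired thermotolerance. Heat shock proteins are chaperones that hold or refold unfolded proteins, and their transcripts are among the most strongly heat-induced in plants.

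The annotation pairs HSFA2 with no probe set, and the knockout was therefore not checked on the targeted gene. The 4 arrays had median log2 intensities between 5.81 and 5.88 and bioB hybridization controls between 7.94 and 8.14. The Rubisco activase gene RCA was at 13.5 to 13.7 and the root beta-glucosidase gene PYK10 at 10.9 to 11.5 on the log2 scale. PYK10 is 1 of 5 measured root markers, and the median of the 5 was far lower. It was 4.60 and 4.41 in the primed and triggered arrays and 4.45 and 4.57 in the triggered ones. Triggered replicate 2 stood apart in a small set of transcripts. In it 18 probe sets were at least 4-fold above every one of the other 16 arrays, against 0 or 1 in each other array. They lay between 5.54 and 11.04 in that array and between 2.53 and 4.66 in all others. The 6 of them with 1 gene were PAP85, which encodes a seed storage protein of the vicilin type, the oleosin family gene AT3G01570, the cupin family gene AT2G28490, AT1G04560, AT1G47540 and AT3G63040. Over the 8 measured genes of the seed storage and late embryogenesis list the median log2 level was 3.55 and 3.69 in the primed and triggered arrays, against 3.61 and 5.04 in the triggered ones, and the summed intensity was 828 and 720 against 817 and 815. None of the 18 probe sets is among the probe sets called in the wild type or the genes that the naming rule picked. Values without this array are given beside the main counts and several gene lists, but not for every list or single gene.

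In the fit of all 17 arrays no transcript passed the test for an effect of earlier heat in hsfa2, a count that depended on the fit. Of 22746 probe sets tested with limma, 0 were called at an adjusted p under 0.05, which is 0% of those tested, and the smallest adjusted p was 0.753. An unadjusted p under 0.05 was reached by 1331 (5.85%). The median change, primed and triggered minus triggered, was −0.02 on the log2 scale with a median SE of 0.21, and the 95% interval of a change had a median reach of 0.45 to either side. Both primed and triggered arrays lay above both triggered arrays in 5021 probe sets (22.1%) and below them in 5944 (26.1%). Without triggered replicate 2 only the unnamed probe set 266395_at was called, lower by 2.20 on the log2 scale (limma, adjusted p 0.0342). Without triggered replicate 1 there were 29 calls, all lower in primed and triggered seedlings, and all 29 were at least 2-fold higher in triggered replicate 2 than in triggered replicate 1. A fit of the 6 hsfa2 arrays called 1 probe set, and the same fit with the replicate number as a block, added after the data were seen, called 946.

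The shared estimate of the spread came mostly from the wild type, whose arrays varied more. The median SD between arrays of a group was 0.0940 in primed and triggered, 0.111 in triggered and 0.0780 in naive hsfa2 seedlings, against 0.148 to 0.208 in the wild-type groups. When arrays were weighted by genotype, an alternative chosen after the data were seen, 84 probe sets were called in hsfa2, 37 higher (0.163%) and 47 lower (0.207%). All 84 had groups that did not overlap, which a small p with 2 arrays a group favours. Of all probe sets 22.1% were above and 26.1% below without overlap. The weights were 1.99 for hsfa2 arrays and 0.687 for wild-type arrays. Genes below that passed with genotype weights had adjusted p-values between 0.772 and 0.783 in the unweighted fit.

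Transcripts called for earlier heat in the wild type had a median change of −0.15 in hsfa2, where no probe set was called in the fit of 17 arrays. In the wild type 70 probe sets (0.308%) were called, 69 of them (0.303%) higher in primed and triggered than in triggered seedlings. These 70 were chosen on the wild-type change, with a spread that all 17 arrays share. That choice alone favours a smaller change in any other arrays. The set was sensitive to the fit: 4 were called with only the compared arrays, 38 with genotype weights, and 19 without wild-type triggered replicate 1 or primed and triggered replicate 3, 24 without primed and triggered replicate 1 or triggered replicate 2. A fit of the wild-type arrays alone called 22, all of them among the 70. Those 22, chosen without the hsfa2 arrays, had a median change of −0.21 in hsfa2, with 2 above (9.09%) and 7 below (31.8%) without overlap. The median change of the 70 was −0.15 in hsfa2, against 1.15 in the wild type that chose them and −0.02 over all probe sets in hsfa2. In hsfa2 8 of the 70 (11.4%) had both primed and triggered arrays above both triggered arrays and 28 (40.0%) had both below, beside 22.1% and 26.1% of all probe sets. The count above became 15 of 70 (21.4%) without triggered replicate 2, where 33.3% of all probe sets met that looser condition, and it was 18 (25.7%, beside 32.7% of all probe sets) without primed and triggered replicate 2. Like all other probe sets, none of the 70 was called in hsfa2, and their changes ran from −1.19 to 0.52. None was at least 1.5-fold higher, where 446 of all 22746 probe sets were. For 68 of the 70 the upper end of the 95% interval in hsfa2 was below the change measured in the wild type. This held for 2150 of all 22746 probe sets, and the choice of the 70 on their wild-type change fixes much of the count of 68.

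**Figure D1:**
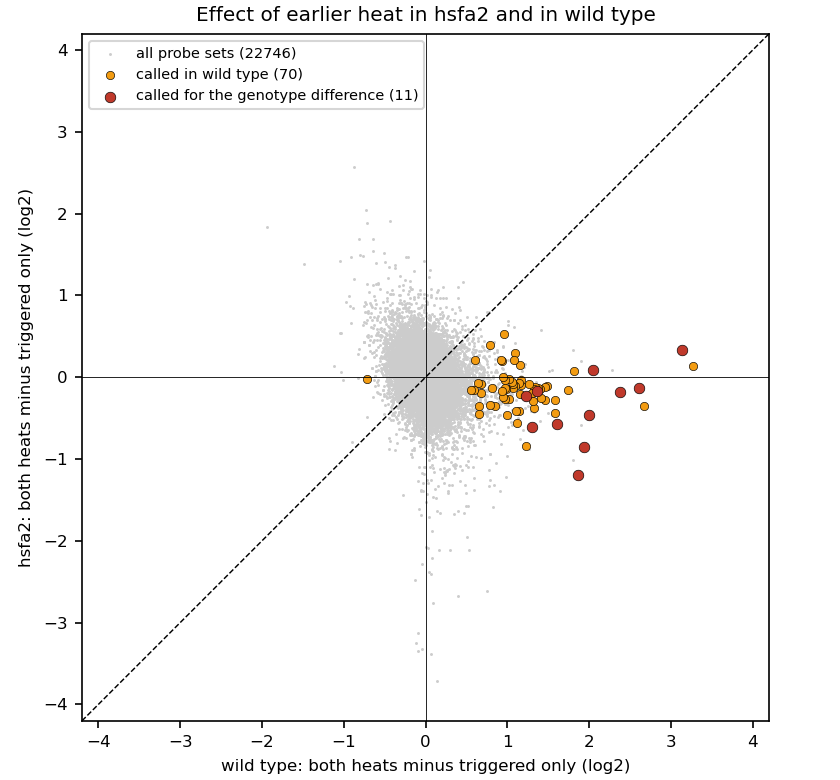
Log2 change of each probe set, primed and triggered minus triggered, in hsfa2 (vertical) against the wild type (horizontal), with the line of equal change dashed. The 70 probe sets called in the wild type (orange) lie between −1.19 and 0.52 on the hsfa2 axis, and the 11 called for the genotype difference (red) all lie below the dashed line.

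The difference between the genotypes was tested directly, as the hsfa2 change minus the wild-type change, and 11 probe sets were called (0.0484%), all with a smaller change in hsfa2. All 11 were also among the 70, and a large wild-type change helps a probe set to pass both tests. Replicate numbers paired the wild-type heated arrays, and with the replicate number as a block 4 of the 11 were called and no others: AT2G21820, 249139_at, 253633_at and 256652_at. Most of the 11 lost their call when any single hsfa2 array was left out, which leaves 1 array in its group. Without hsfa2 triggered replicate 2 the named 6 kept differences between −1.96 and −2.90. With only the compared arrays none was called, so the adjusted p-values given next hold for the fit of 17 arrays. The count was between 2 and 13 when single wild-type arrays were left out.

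AT2G21820, which encodes a seed maturation protein, had log2 levels of 6.55 and 6.32 in primed and triggered hsfa2 seedlings, against 6.06 and 6.14 in triggered ones. The 2 groups did not overlap, but they were 0.34 apart (SE 0.32), where the wild type had 9.63 ± 0.38 against 6.49 ± 0.60 (SD, n = 3 each). The difference between the changes was −2.80 (SE 0.41, limma adjusted p 0.0326). In hsfa2 heat alone had raised it by 2.10 over naive seedlings, and that rise was called (limma adjusted p 0.000895).

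UGT71C2, a glycosyltransferase gene, had 5.37 and 5.45 in primed and triggered hsfa2 seedlings, against 5.57 and 5.62 in triggered ones and 5.35 and 5.90 in naive ones. All 6 arrays thus stayed near the naive level, and both primed and triggered arrays were slightly below the triggered ones. In the wild type the levels were 7.94 ± 0.34 after both heats and 5.56 ± 0.31 after the later heat only (SD, n = 3 each), a difference between the changes of −2.56 (SE 0.38, limma adjusted p 0.0326). AT5G40645 was dim throughout in hsfa2, at 2.73 and 2.68 after both heats and 2.62 and 2.61 after the later heat only. In the wild type it reached 4.94 ± 0.43 after both heats (SD, n = 3), and the changes differed by −1.96 (SE 0.27, limma adjusted p 0.0326).

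AT5G55050, which encodes a GDSL-type lipase, had 6.66 and 5.84 in primed and triggered hsfa2 seedlings, against 7.22 and 6.99 in triggered ones. Both primed and triggered arrays were the lower ones (−0.85, SE 0.32), whereas the wild type had 8.19 ± 0.32 against 6.25 ± 0.55 (SD, n = 3 each). The difference between the changes was −2.79 (SE 0.41, limma adjusted p 0.0326). AT1G02700 had 6.44 and 5.85 after both heats, against 6.25 and 6.96 after the later heat only. Its groups overlapped in hsfa2, and the changes differed by −2.46 between the genotypes (SE 0.37, limma adjusted p 0.0362).

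AT1G11660, a member of the HSP70 family of the HSP110 type, had 9.17 and 8.80 in primed and triggered hsfa2 seedlings, against 9.75 and 9.44 in triggered ones and 7.86 and 7.84 in naive ones. It was heat-induced in hsfa2 (1.74 over naive, limma adjusted p 0.0002) and lower by 0.61 after both heats than after the later heat only, without overlap, a change that was not called. The wild type had 11.00 ± 0.28 against 9.70 ± 0.27 (SD, n = 3 each), and the difference between the changes was −1.91 (SE 0.28, limma adjusted p 0.0339).

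Most of the other large wild-type changes had no counterpart of that size in hsfa2, although many of these transcripts were heat-induced there. In hsfa2 36 of the 70 were called higher in triggered than in naive seedlings (3.5% of all probe sets were). The 70 were called with the same shared spread, which favours further calls among them. AT5G07330 had 10.95 and 10.59 after both heats, against 10.29 and 11.08 after the later heat only and 3.88 and 3.85 in naive hsfa2 seedlings. It was thus induced by heat to about the same level in either case. AT5G53680 had 9.02 and 8.16 after both heats, against 8.92 and 9.01 after the later heat only and 2.74 and 3.05 in naive hsfa2 seedlings. AT1G62290, an aspartic protease gene, had 7.68 and 7.39 after both heats, against 7.48 and 8.45 after the later heat only, overlapping groups. The dirigent-like gene AT1G58170 had 7.10 and 6.73 after both heats, against 7.20 and 6.89 after the later heat only, where the wild-type change was 1.38. UBA1A, an RNA-binding protein gene, had 8.20 and 8.26 against 8.37 and 8.14, beside a wild-type change of 1.03.

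**Figure D2:**
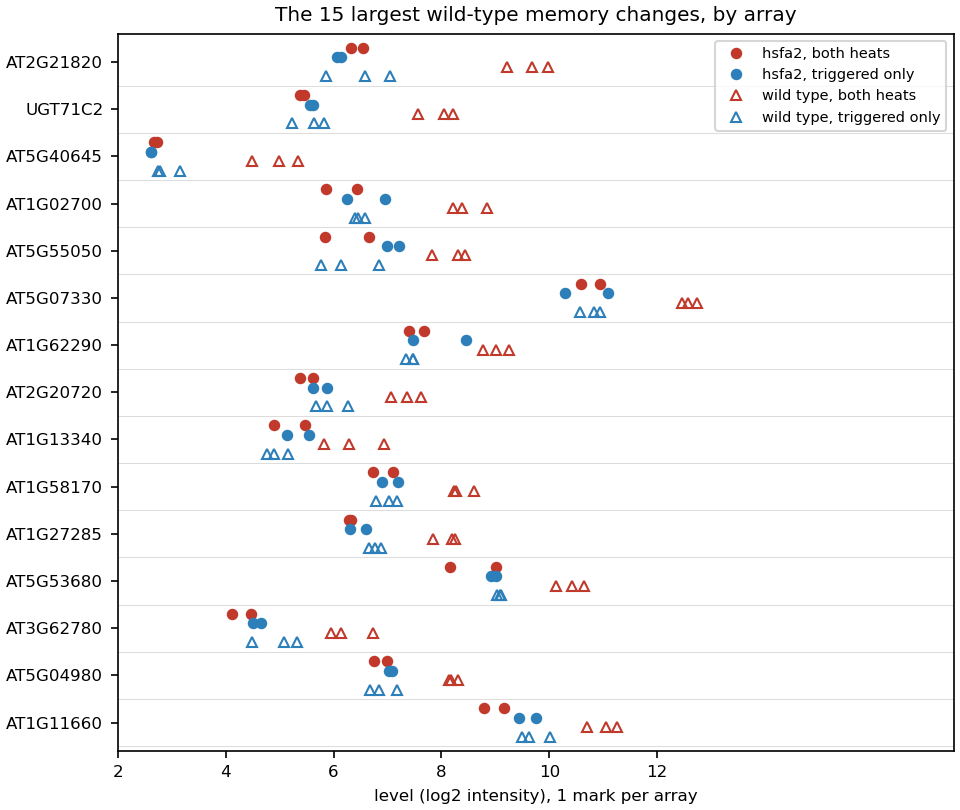
Log2 intensity of the 15 named genes with the largest changes among those called in the wild type, 1 mark per array, for hsfa2 (filled circles, 2 arrays a group) and wild type (open triangles, 3 arrays a group). In hsfa2 the primed and triggered arrays (red) lie among or beside the triggered arrays (blue), while the wild-type primed and triggered arrays of AT2G21820 average 9.63 against 6.49.

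Of the 70, 11 had an unadjusted p under 0.05 in hsfa2, 9 of them lower (12.9%) and 2 higher (2.86%) in primed and triggered seedlings, beside 3.53% and 2.32% of all probe sets. The spread behind these p-values also served to call the 70, and that choice favours a small spread and so a small p. The lectin family gene AT1G73040 had 4.95 and 4.35 after both heats, against 5.71 and 5.26 after the later heat only, a difference of −0.84 (SE 0.27) where the wild type had 1.23. AT1G68620 was the named gene among the 2 higher ones, with 7.53 and 7.74 against 7.09 and 7.39, a difference of 0.39 (SE 0.15) beside 0.79 in the wild type. The single probe set that was lower after both heats in the wild type, AT5G40450, had 9.18 and 9.34 against 9.27 and 9.28 in hsfa2.

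Most heat shock protein transcripts rose with heat in hsfa2, and none passed the test for an effect of the earlier heat. Of 10 measured small heat shock protein genes 8 were called higher in triggered than in naive hsfa2 seedlings (3.5% of all probe sets were), with a median of 7.92 over all 10. AT1G53540 had 13.79 and 13.83 in primed and triggered seedlings, against 13.68 and 13.84 in triggered ones and 3.74 and 4.23 in naive ones. The heated arrays thus overlapped and lay far above the naive ones. ATHSP22.0, a small heat shock protein gene of the endoplasmic reticulum, had 13.13 and 13.10 against 13.04 and 13.18. Over the 10 genes the median change with earlier heat was 0.01 in hsfa2 and 0.10 in the wild type, and 0 were called. Groups did not overlap only for AT4G21870, lower in hsfa2 at 9.28 and 9.15 against 9.73 and 9.50, where 26.1% of all probe sets were lower without overlap. With quantile normalization 3 of the 10 were lower without overlap, beside 22.8% of all probe sets. The fitted intervals were wide, −2.16 to 2.26 for AT1G53540, because the shared spread of these genes is large.

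Co-chaperone levels lay close together with and without the earlier heat. Hop3, which links HSP70 and HSP90, had 12.50 and 12.54 in primed and triggered hsfa2 seedlings, against 12.39 and 12.44 in triggered ones and 4.30 and 4.49 in naive ones. HSA32, a heat-induced protein needed for long acquired thermotolerance, had 11.24 and 11.06 against 10.95 and 11.00, the larger of the 2 non-overlapping positive differences of this list at 0.18 (SE 0.54). Fes1A, which protects cytosolic HSP70, had 12.86 and 12.80 against 12.79 and 12.89, and the immunophilin gene AT5G48570 had 13.12 and 13.05 against 13.10 and 13.19. Over the 8 measured genes the median change was −0.03, with 0 called, 2 above and 1 below without overlap. With quantile normalization 5 were below, so no direction is drawn for this list. The 3 measured heat memory genes known from other work, AT5G48570, ATHSP22.0 and HSA32, had a median change of 0.00, or −0.04 with quantile normalization.

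In the HSP70 family, of 4 measured genes 3 had both primed and triggered arrays below both triggered arrays, 3 also after median centring and 4 with quantile normalization, where 26.1%, 25.6% and 22.8% of all probe sets did. None was called. AT4G16660, also of the HSP110 type, had 8.41 and 7.87 after both heats, against 8.79 and 8.67 after the later heat only and 7.36 and 7.50 in naive hsfa2 seedlings. That change of −0.59 (SE 0.35) stood beside 1.12 in the wild type. The cytosolic HSP70 gene AT3G09440, at 13.54 and 13.52 against 13.56 and 13.57, was only marginally lower, and Hsp70-2 at 9.06 and 8.91 overlapped with 9.44 and 9.05. The median of the 4 genes was −0.42 in hsfa2 and 0.53 in the wild type, −0.55 in hsfa2 without triggered replicate 2 and −0.26 without triggered replicate 1.

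**Figure D3:**
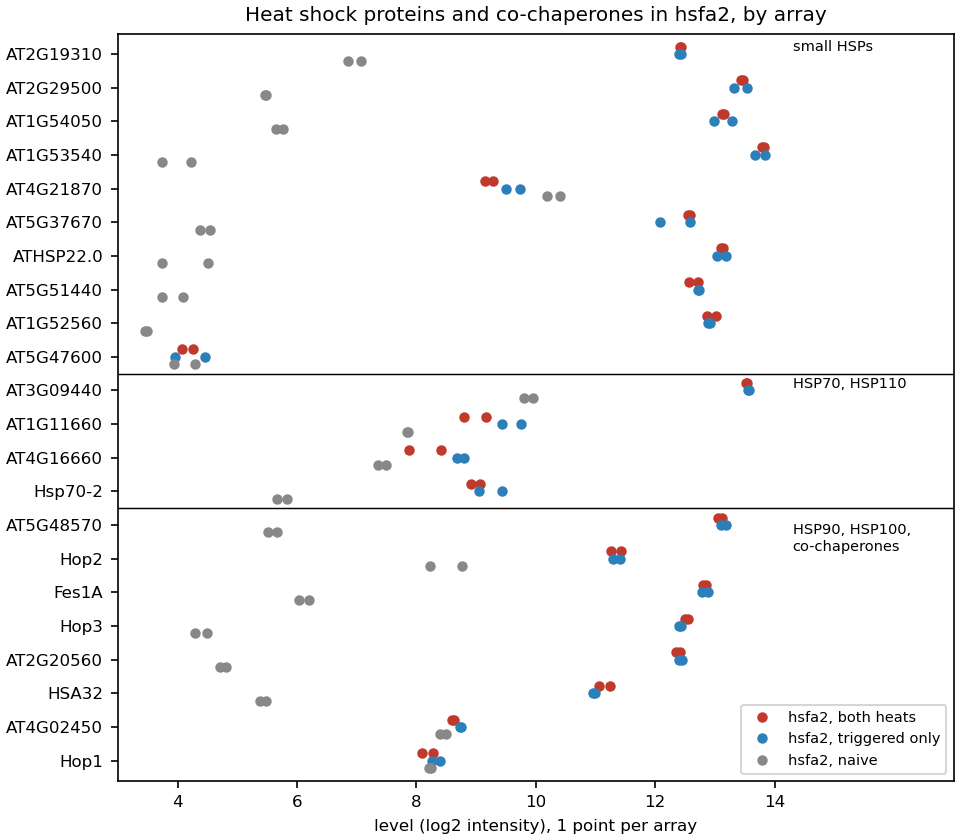
Log2 intensity of the 22 measured heat shock protein and co-chaperone genes in hsfa2, 1 point per array, for primed and triggered (red), triggered (blue) and naive (grey) seedlings. Red and blue points coincide for most genes, and AT1G11660 and AT4G16660 have both red points left of both blue points.

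Several transcripts of breakdown pathways had higher levels in both primed and triggered hsfa2 arrays, and none was called in the unweighted test. Autophagy delivers cell contents to the vacuole, and ATG8 proteins, conjugated to lipid with the help of ATG3, build the autophagosome. The list of autophagy genes was put together after the values were seen, so its counts describe it and support nothing. ATG8B had 7.46 and 7.37 in primed and triggered hsfa2 seedlings, against 6.69 and 6.65 in triggered ones and 6.62 and 6.66 in naive ones. Both primed and triggered arrays were above all 4 others, by 0.75 over triggered seedlings (SE 0.20), and ATG8B is the member that passed with genotype weights (limma adjusted p 0.0314). ATG8E had 9.07 and 9.41 against 7.79 and 8.93, and ATG8F had 10.85 and 10.96 against 10.18 and 10.49. ATG3 had 8.54 and 8.71 against 8.23 and 8.37. Of the 11 measured genes 10 (90.9%) had both primed and triggered arrays above both triggered arrays (22.1% of all probe sets), and the median change was 0.39 in hsfa2 and −0.01 in the wild type. It was 0.43 without triggered replicate 2 and 0.26 without triggered replicate 1.

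Genes of leucine and lysine breakdown were looked at next. Their list, also chosen after the values were seen, joins them with genes known to rise in sugar starvation. MCCA and MCCB, the subunits of methylcrotonyl-CoA carboxylase, and IVD, isovaleryl-CoA dehydrogenase, act in leucine breakdown in mitochondria. IVD had 9.68 and 10.05 in primed and triggered hsfa2 seedlings, against 8.25 and 8.81 in triggered ones and 8.42 and 8.79 in naive ones. MCCA had 10.15 and 10.96 against 8.63 and 9.39, and MCCB had 8.49 and 8.89 against 8.02 and 8.19. In all 3 the primed and triggered arrays were the higher ones.

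AT4G33150, which encodes the bifunctional enzyme of lysine breakdown, had 8.04 and 8.03 after both heats, against 7.14 and 7.48 after the later heat only. AKINBETA1, a subunit of the energy-sensing kinase SnRK1, had 9.64 and 10.22 against 8.65 and 9.18, and AT4G27450 had 10.67 and 11.11 against 9.50 and 10.19. All 6 measured genes were higher without overlap (22.1% of all probe sets), with a median of 1.03 in hsfa2 and −0.34 in the wild type. The naming rule had picked AT4G27450 and AT4G33150 for groups without overlap, and the list was chosen after the values were seen. Its counts therefore describe it and support nothing. The median was 1.33 without triggered replicate 2 and 0.73 without triggered replicate 1. AT4G27450 and AT4G33150 passed with genotype weights (limma adjusted p 0.0481 and 0.0469), and no member was called for the difference between the genotypes.

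**Figure D4:**
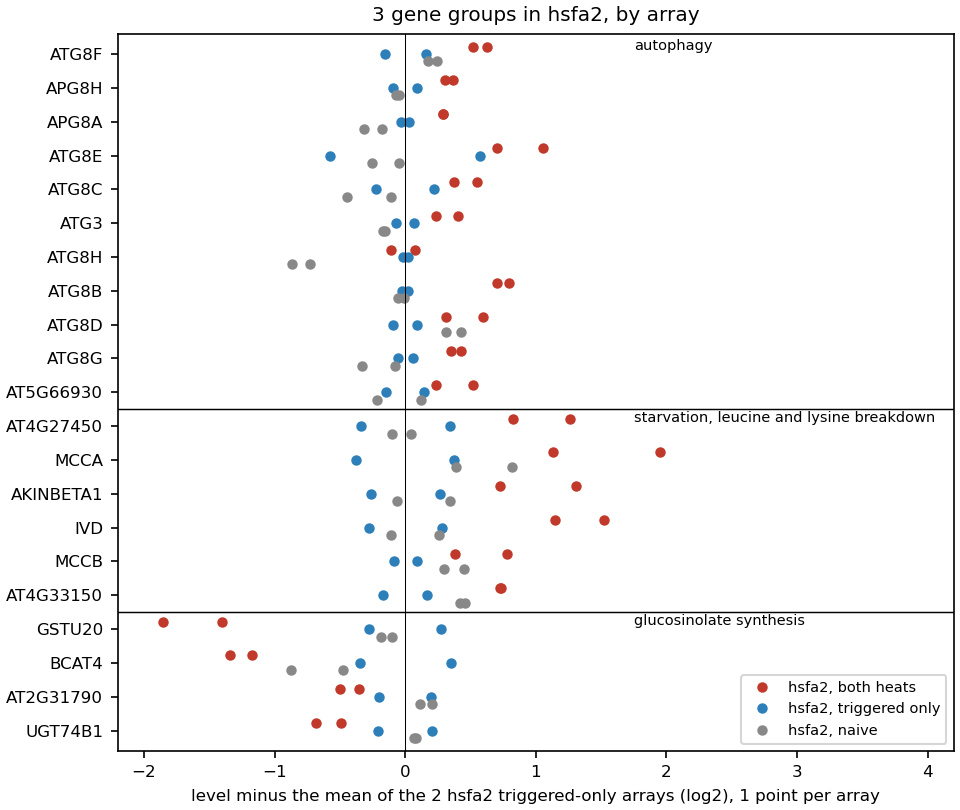
Log2 level of the autophagy, breakdown and glucosinolate genes in hsfa2 minus the mean of the 2 triggered arrays, 1 point per array, for primed and triggered (red), triggered (blue) and naive (grey) seedlings. Red points lie right of the blue points in 10 of 11 autophagy genes and in all 6 breakdown genes, and left of them in all 4 glucosinolate genes.

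Among single genes 209 with 1 annotated gene were at least 1.5-fold higher and 217 at least 1.5-fold lower without overlap, and the 15 of smallest unadjusted p in each direction are described, none of them called in the unweighted test. UPB1, a transcription factor that controls peroxidases and growth in roots, had 8.23 and 8.54 after both heats, against 6.24 and 6.75 after the later heat only and 7.25 and 7.56 in naive hsfa2 seedlings. It was the largest of the 15 at 1.89 (SE 0.44, limma adjusted p 0.0234 with genotype weights), and both primed and triggered arrays were above the naive ones too. CCS, the copper chaperone of superoxide dismutase, had 7.61 and 7.68 against 6.59 and 6.88, and 7.54 and 7.45 in naive seedlings. The lectin family gene AT1G33790 had 8.18 and 7.98 against 7.29 and 7.24. Both genes had primed and triggered levels near the naive ones, which were 7.83 and 8.02 for AT1G33790. The alpha-glucosidase gene AT5G11720 had 7.24 and 7.35 against 6.75 and 6.49, and AT1G19540 had 5.47 and 6.34 against 4.22 and 4.77. Besides these, ATG8B, AT4G27450 and AT4G33150, the 15 hold AT3G56140, AT1G22930, AT5G18850, AT1G03290, AT2G25590, AT1G15740 and AT3G45730, higher by 0.64 to 1.37. Of the 15, 13 passed with genotype weights and 12 had a negative change in the wild type. AT5G18850 was the exception of nearly equal size, 0.80 in hsfa2 and 0.75 in the wild type. The 15 were picked by small p in these same hsfa2 arrays, which favours passing with weights, so the 13 only describe them. Of all probe sets 0.163% passed as higher with genotype weights, and the median wild-type change of all was −0.005.

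Among the 15 lower genes, GSTU20, a glutathione S-transferase gene, had 8.77 and 8.31 in primed and triggered hsfa2 seedlings, against 10.45 and 9.90 in triggered ones and 9.98 and 10.07 in naive ones. The primed and triggered arrays were below all 4 others, by 1.63 relative to triggered seedlings (SE 0.37, limma adjusted p 0.0234 with genotype weights). BCAT4, not among the 15, which starts the chain elongation of methionine for glucosinolates, had 8.52 and 8.36 against 10.04 and 9.35. UGT74B1, the glucosyltransferase of the glucosinolate core, had 7.38 and 7.18 against 8.08 and 7.66. The glucosinolate list, chosen after the values were seen, had 4 measured genes, and GSTU20 is 1 of them. The naming rule had picked GSTU20 for groups without overlap, and it is counted with the glutathione S-transferases too. The counts of this list therefore describe it and support nothing. All 4 were lower without overlap (26.1% of all probe sets), with a median of −0.92 in hsfa2, against 0.07 in the wild type. That median was −1.20 without triggered replicate 2 and −0.64 without triggered replicate 1.

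XTH18 and XTH19, xyloglucan enzymes that remodel growing cell walls, are also outside the 15 and had lower levels in both primed and triggered arrays. XTH18 had 6.33 and 5.35 after both heats, against 7.64 and 6.87 after the later heat only, and XTH19 had 6.26 and 5.32 against 7.24 and 7.10. Neither was called, and over the 10 measured enzymes of this kind the median was −0.15, with 5 below (50%, beside 26.1% of all probe sets) and 1 above without overlap, or 3 below with quantile normalization. This list was chosen after the values were seen, so its counts describe it and support nothing. AT4G12490, of the lipid transfer protein family, had the largest difference of the 15 lower genes, at 5.15 and 5.06 against 8.52 and 6.92, and 7.34 and 8.29 in naive seedlings. The phosphoethanolamine methyltransferase gene AT1G73600 had 6.36 and 6.24 against 8.46 and 7.42.

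AT5G39670, which encodes a calcium-binding protein with EF hands, had 3.50 and 3.53 after both heats, against 4.27 and 4.16 after the later heat only and 3.52 and 3.63 in naive seedlings. AT4G03730 also was close to naive after both heats, with 4.67 and 4.46 against 5.21 and 5.34, and 4.67 and 4.61 in naive seedlings. AT5G35960, a protein kinase gene, had 4.91 and 4.57 against 5.46 and 5.54, and stayed above its naive levels of 4.14 and 4.17. The other lower genes of the 15 were AT3G07470, AT5G02890, AT2G39650, AT4G23620, AT5G54970 and AT1G29250, with changes of −0.67 to −1.02, and 3 ribosomal protein genes. Of the 15, 12 passed with genotype weights and 11 had a positive change in the wild type. These 15 too were picked by small p in the same hsfa2 arrays, so the 12 only describe them. Of all probe sets 0.207% passed as lower with genotype weights, and the median wild-type change of all was −0.005. Unnamed probe sets by the same rule were 266395_at, 255177_at and 248164_at on the lower side (−1.71, −1.66 and −1.30) and 256952_at, 246396_at and 257075_at on the higher side (0.68, 0.91 and 0.59).

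Of 120 measured cytosolic ribosomal protein genes 109 had a negative and 11 a positive change with earlier heat in hsfa2, and 0 were called in the unweighted test. The list was chosen after the values were seen, when AT3G44590 (acidic protein P2), AT2G20450 (L14) and AT1G07070 (L35a) appeared among the 15, so its counts describe it and support nothing. AT3G44590 had 9.94 and 9.47 in primed and triggered hsfa2 seedlings, against 10.71 and 10.22 in triggered ones and 10.48 and 10.13 in naive ones. Both primed and triggered arrays were the lowest of the 6. AT2G20450 had 8.75 and 8.49 against 9.41 and 9.08, and was the member that passed with genotype weights (−0.63, SE 0.16, limma adjusted p 0.0483). Of the 120 genes 82 (68.3%) were lower and 6 (5%) higher without overlap, beside 26.1% and 22.1% of all probe sets. The lower count was 85 after median centring and 85 with quantile normalization.

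The 120 changes ran from −0.90 to 0.35 with a median of −0.27, against 0.00 in the wild type. An unadjusted p under 0.05 was found for 31 of the 120, beside 5.85% of all probe sets, and this count too only describes the list. The median was −0.41 without triggered replicate 2 and −0.14 without triggered replicate 1, so its size rests on the triggered array it is set against. No ribosomal protein or glucosinolate gene was called for the difference between the genotypes. The median level of the 120 genes was 10.48 and 10.38 in primed and triggered, 10.84 and 10.62 in triggered and 10.72 and 10.56 in naive hsfa2 seedlings. In whole seedlings fewer cells of a type and less of these transcripts per cell cannot be told apart.

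**Figure D5:**
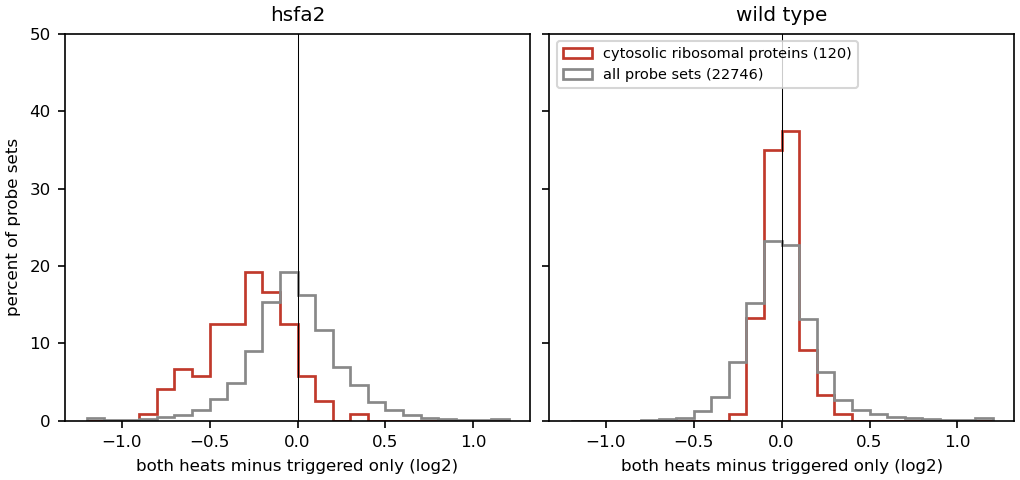
Distribution of the log2 change, primed and triggered minus triggered, over 120 cytosolic ribosomal protein genes (red) and over all 22746 probe sets (grey), in hsfa2 (left) and wild type (right), as a percent of each set with values past the axis in the end bins. The red distribution has a median of −0.27 in hsfa2 and of 0.00 in the wild type.

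Across all 22746 probe sets the changes in hsfa2 and in the wild type, which share no arrays, had a Pearson correlation of −0.28 and a Spearman correlation of −0.27. This is a description across probe sets, which are not independent, and the arrays were normalized together.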

How the data were processed

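The authors deposited intensity values on a linear scale for 22810 probe sets, made with RMA (background correction, normalization over arrays and probe summary) per the submitters' processing notes. RMA's version and options are not given in these sources. These deposited intensities were put on the log2 scale without a pseudocount, and 64 control probe sets were dropped, which left 22746. Array values carry no read depth, and the number of arrays limits the precision. Probe sets were named through the platform annotation (13513 with 1 gene, 503 with several, 8730 not listed), updated with RefSeq TAIR10.1 (13436 matched).

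Samples were grouped by title into 7 groups. Group means over all 17 arrays were estimated by limma 3.58.1 (R 4.3.3) (10 residual degrees of freedom, prior 2.92), and p-values were adjusted by Benjamini-Hochberg over all probe sets, called under 0.05. Without overlap means that both arrays of a group lie on the same side of both arrays of the other. The fit was tested on simulated data. Same-numbered arrays deviated together in the wild type after heat (correlations of deviations 0.56, 0.64 and 0.66), so a replicate block is given where it changes a count. In hsfa2 there were only 2 such pairs.

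Named genes are the 15 of largest change among those called in each direction, filled where fewer are called by smallest unadjusted p among those of at least 1.5-fold without overlap, and described as not called. To these come the 15 largest wild-type calls, the 10 largest called genotype differences, the measured heat genes and at most 3 unnamed probe sets per direction. Where several probe sets had the same gene, the brightest stood for it. The members and lists were chosen with earlier results of these data known, and 7 lists (those called chosen after the values were seen, glutathione S-transferases, xyloglucan enzymes and plastid-encoded genes) were added after seeing these changes. No heat shock factor or raffinose synthesis gene of the lists was measured by a probe set with 1 gene. No sequence or coordinate was used.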

Additional observations from a re-analysis of the deposited data

Results flagged for a closer look

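The effect of earlier heat, primed and triggered minus triggered, differed between hsfa2 and wild type by limma's test of that difference in 11 probe sets, each with a smaller change in hsfa2. The differences, hsfa2 minus wild type, were −3.05 for 249139_at, −2.80 for AT2G21820, −2.79 for AT5G55050, −2.74 for 256652_at, −2.56 for UGT71C2, −2.46 for AT1G02700, −2.18 for 246844_at, −1.96 for AT5G40645, −1.91 for AT1G11660, −1.52 for 253633_at and −1.46 for 254360_at. Their choice on a negative difference fixes much of their direction in each genotype. With only the compared arrays 0 were called. The smallest adjusted p was 0.00313, for 256652_at, which had 6.14 and 6.33 in primed and triggered hsfa2 seedlings, against 6.22 and 6.52 in triggered ones.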

How the results depend on the processing

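The hsfa2 comparison gave 0 calls with median centring, quantile normalization, the filter on dim probe sets, a pseudocount, only the compared arrays, without the 3 arrays of low bioB signal, with an intensity trend, and with the replicate block over 17 arrays. It gave 1 (1 lower) in a fit of only the 6 hsfa2 arrays, 255177_at, and 84 (37 higher, 47 lower) with genotype weights. With the replicate block in the 6 hsfa2 arrays, also added after seeing the data, it gave 946 (497 higher, 449 lower), where same-numbered hsfa2 arrays share only a number. Leaving out 1 hsfa2 array at a time gave 0 to 29 calls, 0 to 29 of them lower. The count of genotype differences, 11, became 4 with the replicate block, 0 with only the compared arrays, 27 without the low bioB arrays and 16 with genotype weights, and ran from 1 to 39 over single arrays left out. The wild-type count, 70, became 4 with only the compared arrays, 38 with genotype weights, 22 with only the wild-type arrays (added after seeing the data), and 19 to 88 over single wild-type arrays left out, 24, 88 and 19 without primed and triggered replicates 1, 2 and 3 and 19, 24 and 49 without triggered replicates 1, 2 and 3. The number of wild-type memory probe sets above without overlap ran from 10 to 18 over single hsfa2 arrays left out. Leaving out an array loosens that condition for all probe sets too. In each of these settings the share of the set stayed below the share of all probe sets. The highest share of the set was 25.7%, without primed and triggered replicate 2, beside 32.7% of all probe sets. Among the 45 named genes 25 passed with genotype weights, 31 with the replicate block in the 6 hsfa2 arrays and 0 with every other alternative tried (42 of them stayed in after the filter on dim probe sets), and none reversed. Most of the 45 were picked by small p without overlap in the same hsfa2 arrays, so these counts only describe them. Of all 22746 probe sets 84 (0.369%) passed with genotype weights and 946 with that block. With 2 arrays a group the 95% interval of a change reached 0.45 (log2) to either side in the median, before any adjustment for the number of tests.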

Other observations

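Other gene groups gave small or mixed values in hsfa2, with 0 calls in each. PRK, the Calvin cycle gene of phosphoribulokinase, had 12.51 and 12.73 in primed and triggered hsfa2 seedlings, against 12.01 and 12.25 in triggered ones and 13.03 and 12.82 in naive ones, and was higher by 0.49 (SE 0.14). The calreticulin gene CRT1b, of protein folding in the endoplasmic reticulum, had 9.86 and 9.54 against 10.38 and 10.26, lower by 0.62 (SE 0.18). GI, of the circadian clock, had 8.61 and 8.92 against 8.31 and 8.31. The 69 measured plastid-encoded genes had a median of 0.03, with 12 above (17.4%) and 9 below (13%) without overlap, and the 13 glutathione S-transferases one of −0.08, with 2 above (15.4%) and 6 below (46.2%), beside 22.1% above and 26.1% below of all probe sets. Both lists were added after the values were seen, and the transferases include GSTU20, which the naming rule picked. Their counts therefore describe them and support nothing. The 3 measured cell cycle genes AUR1, AUR2 and PRL had a median of −0.32 and lay below without overlap, by little for PRL (7.18 and 6.97 against 7.59 and 7.20), with 0 at an unadjusted p under 0.05. Median changes were −0.04 over 5 dehydration and cold genes, −0.03 over 8 expansins and xyloglucan enzymes, 0.24 over 3 auxin genes, −0.07 over 3 defence genes, 0.00 over 5 root markers, −0.10 over 3 guard cell markers and −0.03 over 4 reference genes.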
